A study of Mus musculus with 18 samples.

Results

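Cish, Pim1, Pim2 and Pim3 are 4 genes that cytokine receptors induce through the transcription factor STAT5. They were taken by name, with every probe set annotated to each symbol, and make up 4 of the 18194 genes measured (0.022%). CD8+ T cells of male OT-I Thy1.1 TCR Tg mice, whose transgenic T cell receptor recognises a peptide of ovalbumin, were stimulated for 48 hours by antigen presenting cells pulsed with this peptide and re-purified. They were then cultured for 24 hours with 1 recombinant cytokine (IL-21, IL-15, IL-7, IL-4 or IL-2) at 100 ng/ml, or in media control without added cytokine. Each of the 6 groups had 3 biological replicates, 1 Affymetrix array each, and all groups shared the stimulation, the transgene and the sex of the mice; ages are not given in the sources used here. The transgenic receptor recognises 1 antigen, and T cells of other specificities were not studied as a group.

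Cytokines of the common gamma chain (γc) family bind receptors that share the γc subunit and activate the kinases JAK1 and JAK3, which phosphorylate STAT proteins. IL-2, IL-7 and IL-15 act mainly through STAT5, IL-4 mainly through STAT6 and IL-21 mainly through STAT3, with some overlap. Cish encodes CIS, a member of the suppressor of cytokine signaling (SOCS) family that binds activated receptors and restrains signaling, and Pim1, Pim2 and Pim3 encode related serine/threonine kinases that support survival, cap-dependent translation and cell cycle entry. The PIM kinases need no activating phosphorylation, so their activity depends largely on the amount of the proteins, which arrays do not measure.

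STAT dimers bind the palindrome TTCNNNGAA, which reads the same way on both strands, and STAT6 prefers the same palindrome with 1 base more in its spacer. Both motifs were searched in the RefSeq promoter windows of the 4 genes, which run from 250 bases before the annotated start to 50 bases from it (mouse build GRCm38.p6). Cish held 2 matches to TTCNNNGAA, 1 beginning at the annotated start and 1 ending at base 20. The 250 bases before the start, at chr9:107296409-107296658 on the plus strand, and the 20 bases that follow, at chr9:107296659-107296678, are shown because Cish had the widest range of levels of the 4 genes. Capitals mark the 2 matches.
Cish, upstream: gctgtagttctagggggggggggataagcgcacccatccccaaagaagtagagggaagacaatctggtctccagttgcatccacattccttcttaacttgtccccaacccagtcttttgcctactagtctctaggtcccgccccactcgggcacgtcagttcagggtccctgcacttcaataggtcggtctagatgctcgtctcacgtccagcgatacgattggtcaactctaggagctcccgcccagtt
Cish, from the start: TTCCTGGAAagTTCTTGGAA
Of 32851 windows of this kind, 8.3% held TTCNNNGAA and 6.95% held the motif with the longer spacer. The windows of Pim1 (2 annotated starts), Pim2 and Pim3 held neither, which says only that these letters are not in these windows. The GC content of the Cish window was 53.3%, against 62.7% for Pim2, 69% for Pim3 and 81.3% and 49% for the windows of Pim1.

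The values are log2 levels per probe set, quantile normalized again over the 18 arrays, because replicate 3 of IL-2, IL-15 and media control lay on a lower scale as deposited (array medians 4.47 to 4.52, against 5.76 to 5.84 on the other 15). RNA of replicate 3 was prepared with TRIzol and Direct-zol and that of replicates 1 and 2 with RNeasy. The difference between the 3′ and 5′ actin control probe sets, a sign of RNA quality, was 0.589 to 0.684 on the 3 lower arrays, 0.372 to 0.395 on the other TRIzol arrays and 0.188 to 0.308 on the RNeasy arrays. Differences of the 4 genes whose call changed on the 15 remaining arrays are also given for those arrays. These arrays keep replicate 3 of IL-4, IL-7 and IL-21 only, so the kits are not balanced between groups there. The CD8 T cell identity of the samples was checked first: all 9 measured CD8 T cell markers were above the background level of 6.65, set by genes of other tissues, while 1 of 9 B cell, 1 of 9 myeloid, 0 of 7 dendritic cell, 1 of 4 NK cell, 1 of 5 CD4 T cell and 0 of 4 red cell markers were. All 4 genes were above background in every group. Averaged over the arrays, Pim2 had a level of 11.70, Pim1 of 10.73, Cish of 10.17 and Pim3 of 9.14, but probe sets of different genes do not measure levels on a shared scale.

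Each cytokine was compared with media control to ask which cytokines changed these transcripts. Of the 20 comparisons, 10 passed as higher with the cytokine and 0 as lower (limma over all 18 arrays, Benjamini-Hochberg adjusted over all genes, threshold 0.05). IL-2 raised Cish, Pim1 and Pim3, IL-4 raised Cish, Pim2 and Pim3, IL-7 raised Cish and Pim2, and IL-21 raised Cish and Pim1. In this fit IL-15 gave 0 of 4, and 0 of 4 at an unadjusted p under 0.05. Ranked by size of rise among all genes with IL-15, however, Pim1 was 81st, Cish 154th, Pim2 565th and Pim3 3114th. With the replicate number as a block, Pim1 had a difference of 0.62 with IL-15 (SE 0.24, adjusted p = 0.494). Cish had 0.51 (SE 0.27), Pim2 0.33 (SE 0.19) and Pim3 0.12 (SE 0.17) with the block, and 0 of 4 passed. All 5 comparisons share the media control arrays. Of all genes, 7.83% were called higher and 8.0% lower under IL-2, 3.98% and 5.10% under IL-4, 0.934% and 0.747% under IL-7, and 3.39% and 3.29% under IL-21. With IL-15, 0% were called higher and 0% lower, while 203 genes were higher and 187 lower at an unadjusted p under 0.05. In these bulk samples, fewer cells of a type and less RNA per cell cannot be told apart. Markers of other cell types were mostly below background, but some marker lists moved with the groups. The 9 CD8 T cell markers summed to 103 to 106 under IL-2, 107 to 109 under IL-4, 107 to 109 under IL-7, 109 to 112 under IL-15, 108 to 110.1 under IL-21 and 109.7 to 113 in media control, and 6 of them fell under IL-2, 3 under IL-4, 1 under IL-7 and 1 under IL-21. The 9 B cell markers, 8 of them below background, summed to 44.7 to 49.5 under IL-2, 46.1 to 47.0 under IL-4, 45.1 to 46.7 under IL-7, 46.4 to 50.4 under IL-15, 45.5 to 47.6 under IL-21 and 47.6 to 52.3 in media control, and 3 of them fell under IL-2, 2 under IL-7 and 1 under IL-21. The 5 CD4 T cell markers, 4 of them below background, summed to 28.6 to 29.9 under IL-2, 27.2 to 27.9 under IL-4, 28.6 to 28.9 under IL-7, 29.0 to 30.5 under IL-15, 28.3 to 29.4 under IL-21 and 29.7 to 31.7 in media control, and 1 of them, the chemokine receptor gene Cxcr5, fell under IL-2 (-2.01), IL-4 (-2.95), IL-7 (-1.70) and IL-21 (-1.95). The 9 myeloid markers summed to 44.7 to 46.1 under IL-2, below the 46.9 to 55.0 of media control, and overlapped media control under the other cytokines, and 0 passed. The 4 NK cell markers summed to 18.6 to 19.0 under IL-2 and 18.5 to 19.2 under IL-4, below the 19.2 to 23.1 of media control, and Klre1 fell under IL-4 (-1.22). The 7 dendritic cell markers summed to 36.7 to 37.7 under IL-2 and 37.6 to 39.9 in media control, and Itgax fell under IL-2 (-1.42). With the replicate number as a block, 7, 6, 5 and 3 CD8 T cell markers fell under IL-2, IL-4, IL-7 and IL-21, and 1 rose under IL-4 and 1 under IL-21. In that fit, 15.1%, 12.9%, 8.01% and 10.5% of all genes fell under these cytokines, and 12.9% rose under IL-4 and 10.6% under IL-21. On the 15 arrays 0 B cell markers fell under IL-7. The part of these markers in the results was not tested.

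**Figure D1:**
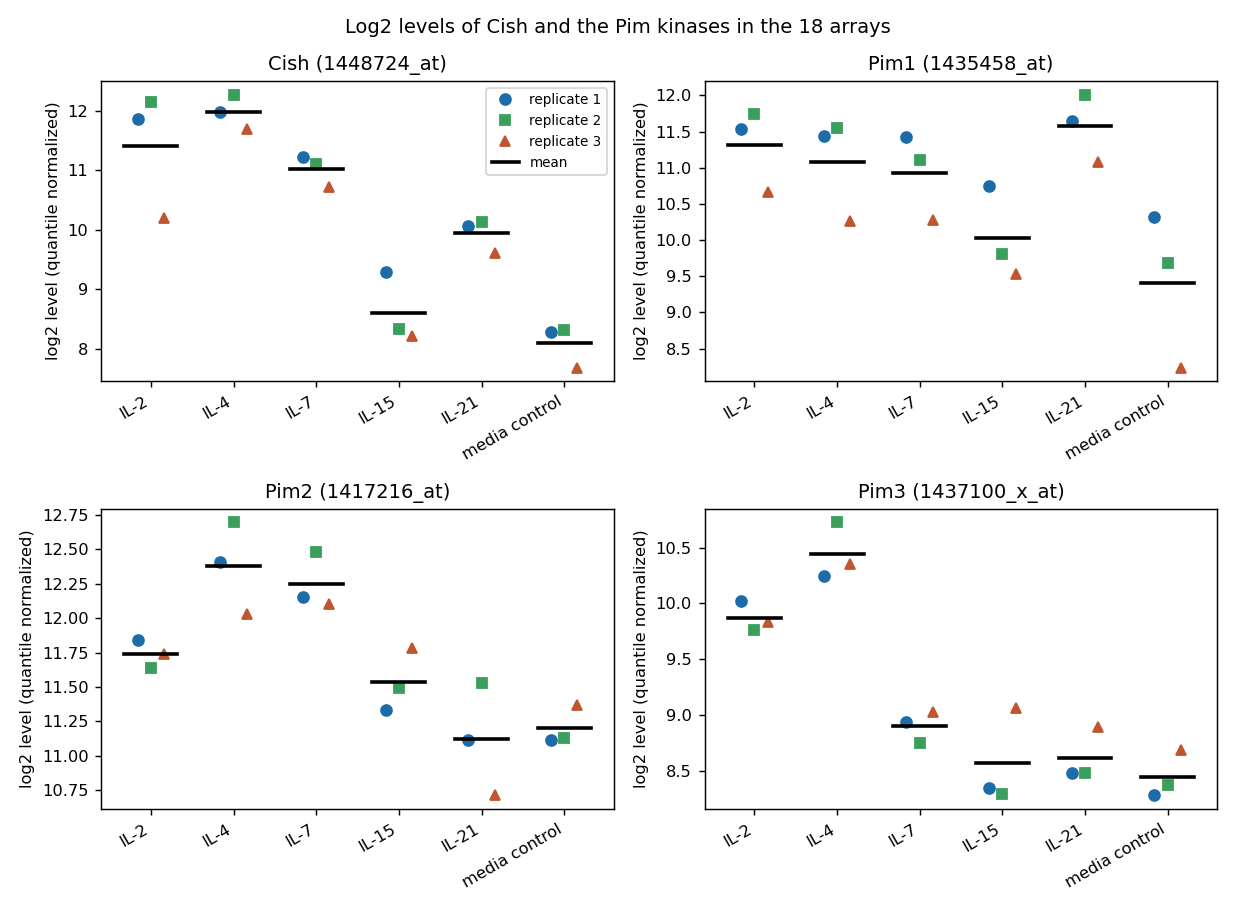
Log2 level (quantile normalized, vertical axis) of the main probe set of Cish, Pim1, Pim2 and Pim3 in each array, by group, with symbols for replicates 1, 2 and 3 and a line at the mean. Cish with IL-2, IL-4, IL-7 and IL-21 lies above all 3 media control arrays, whereas Pim2 with IL-21 spans them, and replicate 3 is the lowest array of every group for Cish and Pim1.

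Cish, the feedback inhibitor, had the widest range of group means, 3.88 on the log2 scale. On probe set 1448724_at, the only one annotated to it, Cish had log2 levels of 11.98, 12.27 and 11.70 under IL-4 and 11.85, 12.15 and 10.20 under IL-2 (replicates 1, 2 and 3). IL-7 cultures had 11.22, 11.10 and 10.72, and IL-21 cultures 10.07, 10.13 and 9.62. All of these lay above the media control arrays, which had 8.28, 8.32 and 7.68. IL-15 cultures had 9.28, 8.33 and 8.22, so that replicate 1 stood about a unit above the others and replicate 3 fell among the media control arrays.

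The mean level of Cish was 11.98 ± 0.28 under IL-4 (SD, n = 3 for every group), 11.40 ± 1.05 under IL-2, 11.01 ± 0.26 under IL-7, 9.94 ± 0.28 under IL-21 and 8.61 ± 0.59 under IL-15, against 8.10 ± 0.36 in media control. The difference from media control was 3.88 under IL-4 (SE 0.40 for each Cish difference, 14.8-fold, adjusted p = 3.1e-05), 3.30 under IL-2 (9.87-fold, adjusted p = 6.5e-05) and 2.92 under IL-7 (7.56-fold, adjusted p = 0.00328). It was 1.84 with IL-21 (3.58-fold, adjusted p = 0.0101). These rises placed Cish 5th of 18194 genes under IL-4, 10th under IL-2, 5th under IL-7 and 101st under IL-21 by size of change. With IL-15 the difference was 0.51 (95% interval -0.35 to 1.37), 154th by size of change, and did not pass. Within replicates 1, 2 and 3 the rise was 3.70, 3.94 and 4.01 under IL-4, and 2.94, 2.78 and 3.04 under IL-7. With IL-2 it was 3.57, 3.83 and 2.51, the last between 2 of the lower arrays, and on the 15 arrays without these it was 3.70 (adjusted p = 1.3e-05). The IL-21 call was lost without media control replicate 3 (1.64, adjusted p = 0.0510). It was also lost without all replicate 1 arrays (1.87, adjusted p = 0.179) and without all replicate 2 arrays (1.86, adjusted p = 0.147). The IL-7 call was lost without replicate 1 (2.91, adjusted p = 0.249) or 2 (2.99, adjusted p = 0.165). Both calls held with the replicate number as a block (adjusted p = 2.3e-04 for IL-21 and 8.3e-05 for IL-7). Within replicates 1, 2 and 3 the IL-21 rise was 1.78, 1.81 and 1.93. The IL-4 and IL-2 calls held in every fit that left out 1 array of the groups compared or 1 replicate number.

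Pim1, a kinase first known from retroviral insertions in mouse lymphomas, had its highest mean with IL-21, and its group means spanned 2.16, against 1.99 for Pim3 and 1.26 for Pim2. Its main probe set, 1435458_at, had log2 levels of 11.64, 12.01 and 11.08 with IL-21 and 11.53, 11.74 and 10.66 with IL-2. IL-4 gave 11.44, 11.55 and 10.26, and IL-7 gave 11.42, 11.10 and 10.28. In all of these groups replicate 3 was the lowest array. IL-15 cultures had 10.75, 9.81 and 9.53, and media control cultures 10.32, 9.69 and 8.24. The media control arrays thus spread over more than 2 units, all arrays with IL-21 or IL-2 lay above them, and 1 array each with IL-4 and IL-7 fell just below the highest of them.

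The Pim1 means were 11.58 ± 0.47 under IL-21, 11.31 ± 0.57 under IL-2, 11.08 ± 0.71 under IL-4, 10.93 ± 0.59 under IL-7 and 10.03 ± 0.64 under IL-15, against 9.41 ± 1.07 in media control (SD, n = 3). Pim1 rose by 2.16 with IL-21 (SE 0.51 for each Pim1 difference, 4.48-fold, adjusted p = 0.0166) and by 1.90 with IL-2 (3.73-fold, adjusted p = 0.0179). The differences of 1.67 with IL-4 (3.18-fold, adjusted p = 0.0543) and 1.52 with IL-7 (2.87-fold, adjusted p = 0.159) did not pass. With the replicate number as a block, both passed (adjusted p = 1.6e-04 with IL-4 and 0.00139 with IL-7). IL-15 gave 0.62 (95% interval -0.47 to 1.71), made up of 0.44, 0.12 and 1.29 within replicates 1, 2 and 3, and it was 0.28 on the 15 arrays. On those arrays the IL-4 difference was 1.08 and the IL-7 difference 0.93, neither past the threshold. These 2 differences set groups with replicate 3 against media control without it, and replicate 3 was the lowest Pim1 array of every group. Without all replicate 3 arrays they were 1.49 with IL-4 (adjusted p = 0.0109) and 1.26 with IL-7 (adjusted p = 0.0534).

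Pim1 rose in every replicate, by 1.33, 2.32 and 2.84 with IL-21 and 1.22, 2.05 and 2.42 with IL-2 (replicates 1, 2 and 3). With the replicate number as a block both calls held (adjusted p = 2.1e-05 with IL-21 and 2.6e-05 with IL-2). Without the block, both calls depended on single arrays. The IL-21 call was lost without IL-21 replicate 1 (adjusted p = 0.0634) or 2 (adjusted p = 0.0714), without media control replicate 3 (1.58, adjusted p = 0.0832), and without all replicate 1 (adjusted p = 0.0991) or replicate 2 arrays (adjusted p = 0.265). The IL-2 call was lost without IL-2 replicate 1 (adjusted p = 0.0692) or 2 (adjusted p = 0.0733), without media control replicate 3 (1.31, adjusted p = 0.0876), and without all replicate 1 (adjusted p = 0.0757) or replicate 2 arrays (adjusted p = 0.235). The IL-4 difference passed without IL-4 replicate 3 (2.08, adjusted p = 0.0329), media control replicate 1 (2.12, adjusted p = 0.0208) or all replicate 3 arrays (1.49, adjusted p = 0.0109), and the IL-7 difference ran between 0.93 and 1.97 over these fits, the lowest without media control replicate 3, and never passed. On the 15 arrays both calls held, with 1.58 for IL-21 (adjusted p = 0.0466) and 1.64 for IL-2 (adjusted p = 0.0354).

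Pim2, a kinase whose product is short-lived and tied to the survival of lymphocytes, had its highest means with IL-4 and IL-7. Probe set 1417216_at had log2 levels of 12.41, 12.70 and 12.03 under IL-4 and 12.15, 12.48 and 12.11 under IL-7, all above the media control arrays at 11.12, 11.13 and 11.37. IL-2 gave 11.84, 11.64 and 11.74 and IL-15 gave 11.34, 11.49 and 11.78, while IL-21 gave 11.12, 11.53 and 10.71. The IL-2 arrays also lay above all media control arrays, whereas the IL-15 and IL-21 arrays overlapped them.

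Pim2 averaged 12.38 ± 0.33 under IL-4, 12.25 ± 0.21 under IL-7, 11.74 ± 0.10 under IL-2, 11.54 ± 0.23 under IL-15 and 11.12 ± 0.41 under IL-21, against 11.20 ± 0.14 in media control (SD, n = 3). It rose by 1.17 with IL-4 (SE 0.20 for each Pim2 difference, 2.26-fold, adjusted p = 0.00172) and by 1.04 with IL-7 (2.06-fold, adjusted p = 0.0180). The difference with IL-2 was 0.53 (1.45-fold, adjusted p = 0.0958) and passed only with the replicate block (adjusted p = 0.0428) or without the replicate 3 arrays (0.62, adjusted p = 0.0267). With IL-15 it was 0.33 (95% interval -0.10 to 0.77) and with IL-21 it was -0.09 (95% interval -0.52 to 0.35). The IL-7 call was lost without IL-7 replicate 1 (adjusted p = 0.0708) or 2 (adjusted p = 0.0983), media control replicate 2 (adjusted p = 0.0879), or all replicate 1 (adjusted p = 0.355) or replicate 2 arrays (adjusted p = 0.267). The IL-4 call was lost without all replicate 1 (adjusted p = 0.120) or all replicate 2 arrays (adjusted p = 0.0649). Both calls held with the replicate block (adjusted p = 3.6e-04 with IL-4 and 0.00261 with IL-7).

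Pim3, the third kinase of the family, had its highest means with IL-4 and IL-2. On its main probe set, 1437100_x_at, the log2 levels were 10.24, 10.73 and 10.35 under IL-4 and 10.02, 9.76 and 9.83 under IL-2, and media control arrays had 8.28, 8.37 and 8.69. The lowest IL-2 array was thus a full unit above the highest media control array. IL-7 gave 8.94, 8.75 and 9.03, IL-15 gave 8.34, 8.30 and 9.06, and IL-21 gave 8.48, 8.48 and 8.89. The IL-7 arrays lay just above media control and the IL-15 and IL-21 arrays overlapped it.

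Mean Pim3 levels were 10.44 ± 0.25 under IL-4, 9.87 ± 0.13 under IL-2, 8.90 ± 0.14 under IL-7, 8.62 ± 0.24 under IL-21 and 8.57 ± 0.43 under IL-15, against 8.45 ± 0.22 in media control (SD, n = 3). Pim3 rose by 1.99 with IL-4 (SE 0.20 for each Pim3 difference, 3.98-fold, adjusted p = 2.4e-05) and by 1.42 with IL-2 (2.68-fold, adjusted p = 2.0e-04). Both calls held without any 1 array of the 2 groups compared and without any 1 replicate number. Within replicates 1, 2 and 3 the rise was 1.96, 2.35 and 1.66 under IL-4 and 1.74, 1.39 and 1.14 under IL-2. The differences of 0.46 under IL-7 (adjusted p = 0.311), 0.17 under IL-21 (95% interval -0.25 to 0.60) and 0.12 under IL-15 (95% interval -0.31 to 0.55) did not pass.

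**Figure D2:**
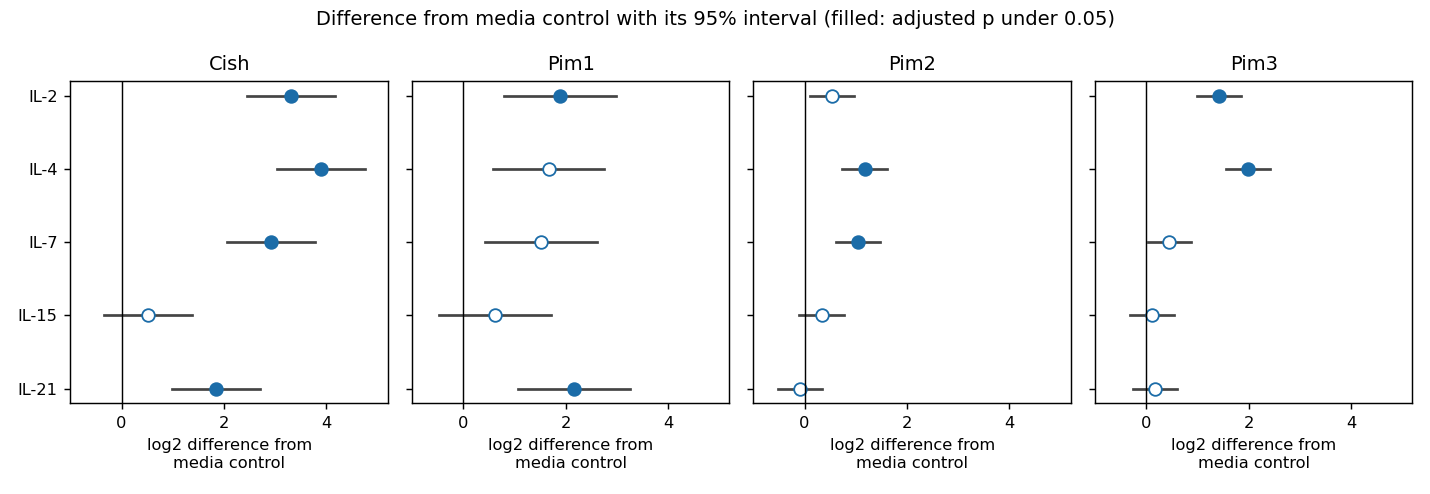
Log2 difference from media control (horizontal axis) of the 4 genes with each cytokine, with its 95% interval. Filled points passed an adjusted p of 0.05: Cish with every cytokine but IL-15, Pim1 under IL-2 and IL-21, Pim2 under IL-4 and IL-7, and Pim3 under IL-2 and IL-4.

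Replicate 3, prepared with the other kit, was the lowest array of its group in all 6 groups for Cish and for Pim1, by a mean of 0.73 and 1.08. Across all genes, 13.5% were lowest in replicate 3 in all 6 groups and 12.7% were highest. Pim2 was lowest in replicate 3 in 3 groups and highest in 2, and Pim3 was highest in 4 groups and lowest in 0.

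Pim1 and Pim3 had further probe sets, which bear on how far a value depends on the probes. The other Pim1 probe set, 1423006_at, had levels of 10.92, 11.01 and 10.38 with IL-21 against 9.52, 8.60 and 7.89 in media control. In the fit over all probe sets its differences were 2.10 under IL-21 (adjusted p = 0.00708), 1.61 under IL-2 (adjusted p = 0.0173), 1.69 under IL-4 (adjusted p = 0.0237), 1.50 under IL-7 (adjusted p = 0.119) and 0.52 under IL-15. The rise with IL-4 therefore passed on this probe set and not on the main one. Pim3 had 2 more. On 1451069_at, levels were 9.78, 10.14 and 9.44 under IL-4 and 9.58, 9.08 and 8.04 under IL-2, against 7.48, 7.47 and 6.47 in media control. The differences on it were 2.65 under IL-4 (adjusted p = 4.2e-04), 1.76 under IL-2 (adjusted p = 0.00423), 1.07 under IL-7 (adjusted p = 0.221), 0.48 under IL-21 and 0.34 under IL-15. Between cytokines, IL-2 against IL-7 was 0.69 on this probe set (adjusted p = 0.649, with overlapping arrays), IL-4 against IL-7 1.58 (adjusted p = 0.0612) and IL-2 against IL-21 1.28 (adjusted p = 0.0625), none past the threshold, while IL-4 over IL-15 and over IL-21 and IL-2 over IL-15 passed (adjusted p = 0.00228, 0.00241 and 0.0303). On this probe set replicate 3 was the lowest array in all 6 groups, by a mean of 0.72, unlike on the main one. The remaining probe set, 1438956_x_at, lay below background in every group, with means of 4.58 to 4.79, and its differences ran between -0.07 and 0.13.

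**Figure D3:**
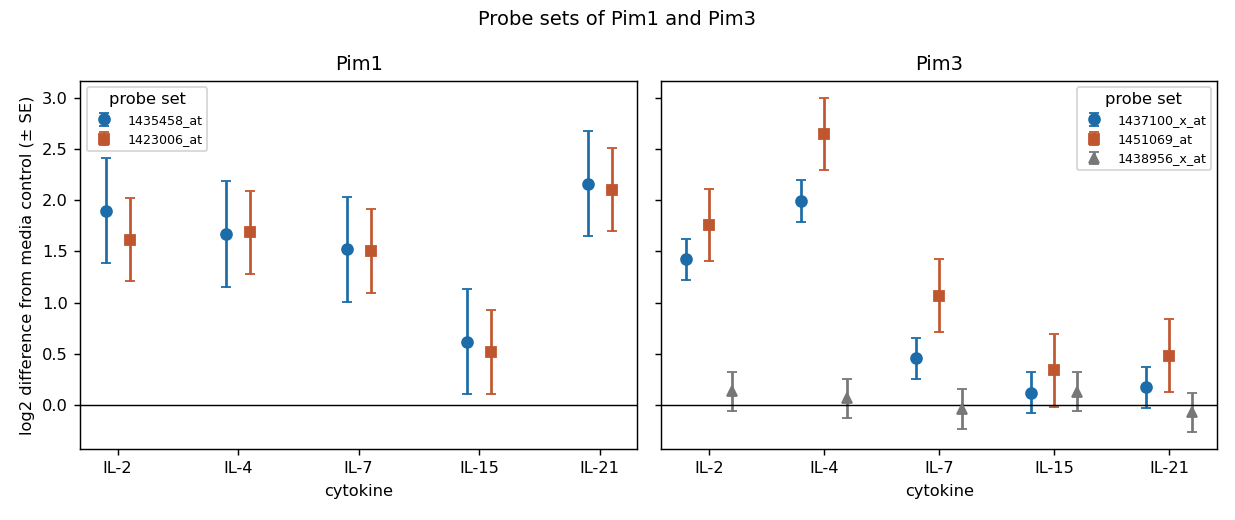
Log2 difference from media control (vertical axis, with its standard error) of every probe set of Pim1 and Pim3 with each cytokine. The 2 Pim1 probe sets run side by side, whereas for Pim3 1451069_at lies above 1437100_x_at with each cytokine and 1438956_x_at, which was below background, stays near 0.

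The cytokines were then compared with each other. Of 40 comparisons, 13 passed, 6 for Pim3, 4 for Cish, 3 for Pim2 and 0 for Pim1, for which 2 comparisons had an unadjusted p under 0.05. IL-4 was higher than IL-21 for Cish, Pim2 and Pim3 (1.46% of all genes called higher) and higher than IL-15 for the same 3 genes (1.55%). IL-2 was higher than IL-15 for Cish and Pim3 (4.24%) and higher than IL-21 for Cish and Pim3 (2.87%). Pim3 was also higher under IL-4 than under IL-7 (0.704%) and under IL-2 than under IL-7 (0.528%), and Pim2 was higher under IL-7 than under IL-21 (0.797%). Without the block, none of the 4 genes passed between IL-2 and IL-4 (0.962% of all genes higher), between IL-7 and IL-15 (0.0110%) or between IL-15 and IL-21 (1.48% higher and 2.06% lower).

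By its means Cish ran in the order IL-4, IL-2, IL-7, IL-21, IL-15 and media control, and no neighbouring pair in it passed. Cish with IL-4 was 3.37 above IL-15 (adjusted p = 1.7e-04) and 2.04 above IL-21 (adjusted p = 0.00680), and Cish with IL-2 was 2.79 above IL-15 (6.92-fold, adjusted p = 5.8e-04) and 1.46 above IL-21 (adjusted p = 0.0410). IL-2 and IL-4 differed by -0.58 (adjusted p = 0.725), a difference of 0.020 on the 15 arrays. Of the pairs that did not pass, IL-7 over IL-15 (2.41, adjusted p = 0.0733), IL-7 over IL-21 (1.08, adjusted p = 0.293) and IL-15 against IL-21 (-1.33, adjusted p = 0.0981) passed with the replicate block (adjusted p = 0.00130, 0.0218 and 0.00431). These pairs also passed with the extraction kit as a term (adjusted p = 9.5e-04, 0.0236 and 0.00445) and on the 15 arrays, where they were 2.21 (adjusted p = 0.00535), 1.08 (adjusted p = 0.0226) and -1.13 (adjusted p = 0.0245).

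Pim1 was highest under IL-21 and next under IL-2, followed by IL-4, IL-7, IL-15 and media control, and no neighbouring pair passed. Its largest difference, -1.55 for IL-15 against IL-21, had an adjusted p of 0.141, and 5.7e-04 with the block. IL-2 over IL-15 (1.28, adjusted p = 0.165) and IL-4 over IL-15 (1.05, adjusted p = 0.402) also passed with the block (adjusted p = 0.00118 and 0.00873). All 3 pairs passed as well with the extraction kit as a term (adjusted p = 7.9e-04, 0.00190 and 0.0129) and without the replicate 3 arrays (adjusted p = 0.0148, 0.0125 and 0.0367), and 0 of them on the 15 arrays. Among IL-21, IL-2, IL-4 and IL-7 the Pim1 differences ran between -0.64 and 0.38.

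Pim2 ran in the order IL-4, IL-7, IL-2, IL-15, media control and IL-21, with no neighbouring pair past the threshold. IL-21, the cytokine with the highest Pim1 mean, thus had the lowest Pim2 mean, but both places changed with the arrays used. Against media control, Pim2 with IL-21 was -0.09 on all arrays and 0.20 without the replicate 3 arrays. Pim1 with IL-2 was 0.060 above IL-21 on the 15 arrays. Pim2 was 1.26 higher under IL-4 than under IL-21 (adjusted p = 0.00132), 1.13 higher under IL-7 than under IL-21 (adjusted p = 0.00549) and 0.84 higher under IL-4 than under IL-15 (adjusted p = 0.0301). With the block, Pim2 was also lower under IL-2 than under IL-4 (-0.64, adjusted p = 0.154, with the block 0.0426) and higher under IL-2 than under IL-21 (0.62, adjusted p = 0.0874, with the block 0.0284). The first of these also passed without the replicate 3 arrays (adjusted p = 0.0321), and the other with the extraction kit as a term (adjusted p = 0.0391) and without IL-21 replicate 2 (adjusted p = 0.0394).

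In Pim3 the means ran IL-4, IL-2, IL-7, IL-21, IL-15 and media control, and the step between IL-2 and IL-7 was the only neighbouring pair that passed (0.97, adjusted p = 0.0247), and it did not pass on probe set 1451069_at (0.69). Pim3 was 1.87 higher under IL-4 than under IL-15 (adjusted p = 6.4e-05), 1.82 higher than under IL-21 (adjusted p = 4.9e-05) and 1.54 higher than under IL-7 (adjusted p = 6.8e-04). It was 1.30 higher under IL-2 than under IL-15 (adjusted p = 8.8e-04) and 1.25 higher than under IL-21 (adjusted p = 0.00126). IL-2 against IL-4 gave -0.57 (adjusted p = 0.220, with the block 0.0437). IL-7, IL-15 and IL-21 differed from each other by -0.05 to 0.34. The comparisons that share a cytokine also share its 3 arrays. The step between IL-2 and IL-7 was the least stable of these calls: it was lost in 8 of 9 fits that left out 1 array or 1 replicate number (adjusted p up to 0.604), as was Cish with IL-2 over IL-21 in 7 of 9 (adjusted p up to 0.462) and Pim2 with IL-4 over IL-15 in 6 of 9 (adjusted p up to 0.621).

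**Figure D4:**
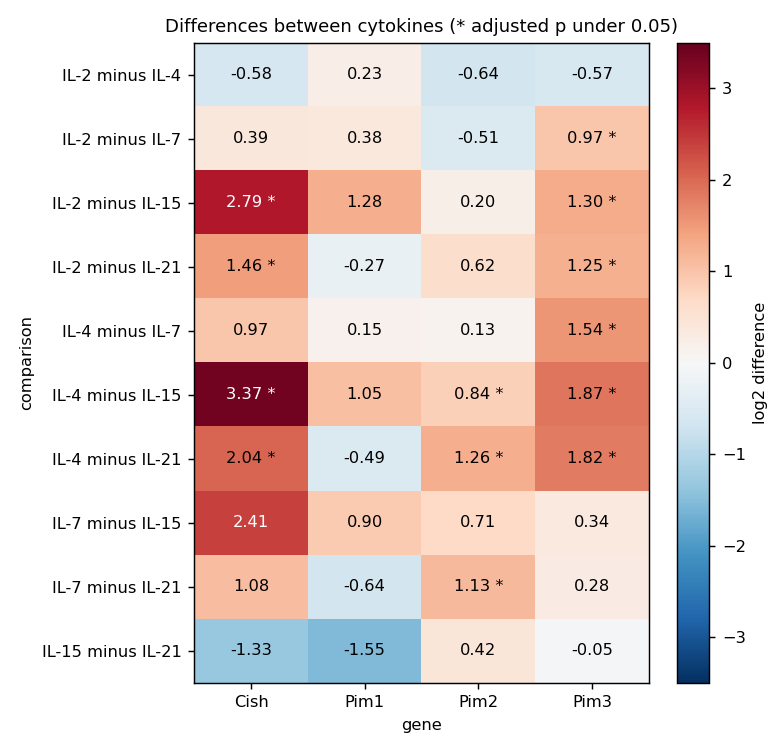
Log2 difference between each pair of cytokines (rows) for the 4 genes (columns), coloured by size and sign, with a star at an adjusted p under 0.05. The stars fall on rows that set IL-4 or IL-2 against IL-7, IL-15 or IL-21, and on Pim2 with IL-7 over IL-21, and the Pim1 column has none.

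Of 22 other genes that STAT5 is known to induce or regulate, 15 rose under IL-2, 11 under IL-4, 7 under IL-7, 0 under IL-15 and 10 under IL-21, and 2, 0, 1, 0 and 1 fell. Their median changes were 1.43 under IL-2, 1.06 under IL-4, 0.85 under IL-7, 0.10 under IL-15 and 0.88 under IL-21, while the median over all genes lay between -0.02 and 0.01. Of all genes, 7.83% were called higher under IL-2, 3.98% under IL-4, 0.934% under IL-7, 0% under IL-15 and 3.39% under IL-21. With the replicate block, 16, 16, 14 and 12 of the 22 genes rose and 2, 3, 2 and 3 fell under IL-2, IL-4, IL-7 and IL-21. In that fit, 15.5%, 12.9%, 8.34% and 10.6% of all genes rose and 15.1%, 12.9%, 8.01% and 10.5% fell. Without the replicate 3 arrays 11 of the 22 genes rose under IL-7. On the deposited values 6, 6, 3 and 4 rose and 0 fell, while on the 15 arrays the numbers that rose were 14, 11, 8 and 9 with IL-2, IL-4, IL-7 and IL-21. Il2ra, the high-affinity IL-2 receptor chain, rose by 3.14 under IL-2, 2.67 under IL-4, 2.24 under IL-7 and 2.74 under IL-21. Socs2, which restrains growth hormone and cytokine signaling, rose by 3.99 with IL-2 (SE 0.63, adjusted p = 4.5e-04) and 3.18 with IL-7 (adjusted p = 0.0190). IL-2 also raised the cytokine genes Lta by 3.69 and Lif by 3.31.

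Gzmb, which encodes the cytotoxic protease granzyme B, rose by 2.19 under IL-4 and 1.94 under IL-7, Lif by 2.57 and the costimulatory receptor Tnfrsf4 by 2.16 under IL-4, and the survival gene Bcl2 by 1.78 under IL-7. The largest rises with IL-21 were those of Prf1, the pore-forming protein perforin, by 4.10, Socs3, a STAT3-induced inhibitor, by 3.04 and Gadd45g, a stress response gene, by 2.83. The genes that fell were named after their values were seen: Bcl6, a repressor that STAT5 is known to lower, fell by 2.46 under IL-2 and 1.66 under IL-7, the survival gene Mcl1 fell by 0.65 under IL-2, and Lta fell by 1.78 under IL-21.

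**Figure D5:**
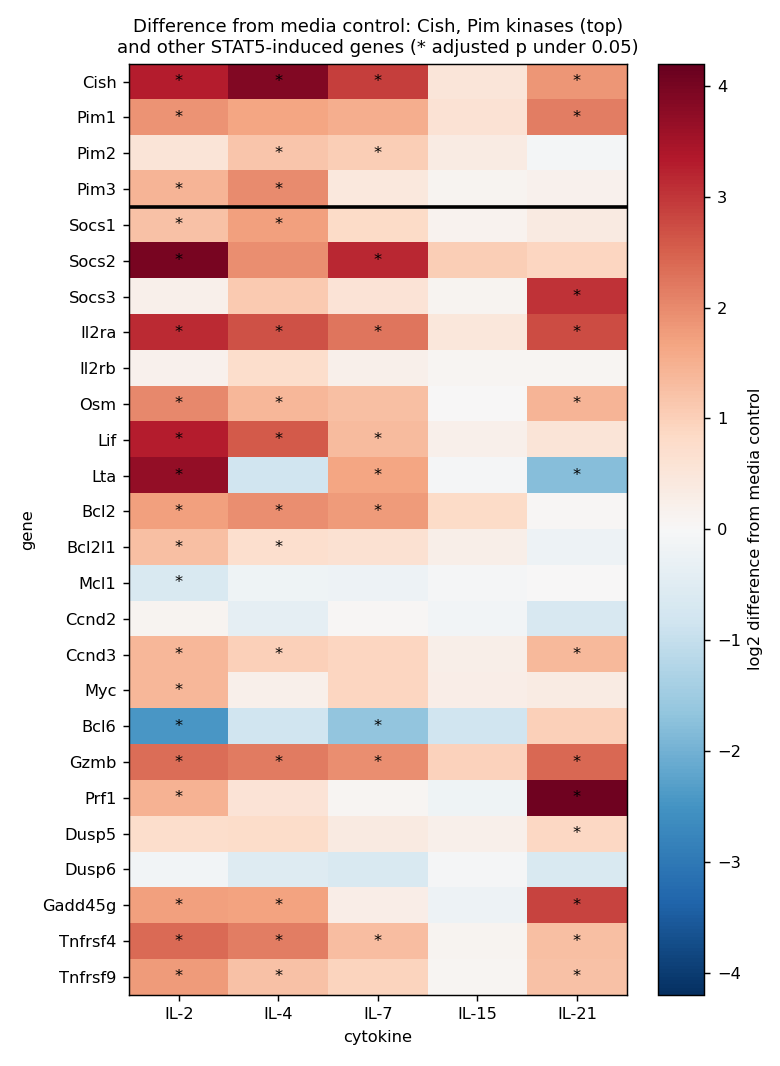
Log2 difference from media control with each cytokine (columns) of Cish, Pim1, Pim2 and Pim3 (above the line) and of 22 other STAT5-linked genes, with a star at an adjusted p under 0.05. The IL-15 column holds no star, Il2ra, Gzmb and Tnfrsf4 are starred in the other 4 columns as Cish is, and Socs3 is starred only with IL-21.

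Cish belongs to the SOCS family, whose other 7 members were all measured. IL-2 raised 3 of them, IL-4, IL-7 and IL-21 raised 1 each, IL-15 raised 0, and 0 fell. Besides Socs2 and Socs3, these were Socs1, an inhibitor of JAK kinases, with IL-2 (1.23, adjusted p = 0.0384) and IL-4 (1.72, adjusted p = 0.00932), and Socs6 with IL-2 (0.73, adjusted p = 0.0353). In this fit without the block, 7.83%, 3.98%, 0.934% and 3.39% of all genes rose with IL-2, IL-4, IL-7 and IL-21. The shares that fell in it were 8.0%, 5.10%, 0.747% and 3.29%. The replicate block gave 4 members each with IL-4 and IL-7 and 2 with IL-21. On the 15 arrays 2 members passed with IL-2 and 2 with IL-4. Of 7 targets and ubiquitin ligase partners of CIS, the scaffold Cul5 rose (0.55, adjusted p = 0.00772) and the phospholipase Plcg1 fell with IL-2 (-0.95, adjusted p = 0.00914), the adaptor subunit Elob rose with IL-21 (0.46, adjusted p = 0.0116), and 0 passed with the other cytokines. With the block, 2 rose and 1 fell with each of IL-21, IL-4 and IL-2 and 1 fell with IL-7, and on the 15 arrays Plcg1 did not pass. In the block fit, 15.5%, 12.9%, 8.34% and 10.6% of all genes rose with IL-2, IL-4, IL-7 and IL-21. The shares that fell were 15.1%, 12.9%, 8.01% and 10.5%.

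Transcripts of 20 proteins known as PIM kinase substrates moved both ways, 4 higher and 4 lower under IL-2, 3 and 3 under IL-4, 1 and 0 under IL-7, 0 and 0 under IL-15, and 2 and 1 under IL-21. Over all genes the shares were 7.83% and 8.0% under IL-2, 3.98% and 5.10% under IL-4, 0.934% and 0.747% under IL-7 and 3.39% and 3.29% under IL-21. Cdkn1a, a cyclin-dependent kinase inhibitor, rose by 2.55 under IL-2, 1.66 under IL-4 and 1.55 under IL-21. Eif4ebp1, a translation repressor, rose by 2.04, 1.42, 1.25 and 1.03 with IL-2, IL-4, IL-7 and IL-21. IL-2 raised the growth regulator Myc by 1.40, and lowered the cell cycle inhibitor Cdkn1b (-1.04). Map3k5, a stress kinase, fell by 0.81 under IL-2 and 0.75 under IL-4, and Nfatc1, an activation-induced transcription factor, fell by 0.47 under IL-2, 0.54 under IL-4 and 0.69 under IL-21. Rela with IL-2 (-0.55) and Eif4b with IL-4 (-0.48) completed the falls. With the replicate block, 4 substrates rose under IL-7, 5 rose and 6 fell under IL-4, and 5 rose and 4 fell under IL-21. With the block, 8.34% of all genes rose under IL-7, 12.9% rose and 12.9% fell under IL-4, and 10.6% rose and 10.5% fell under IL-21. PIM kinases act on these proteins by phosphorylation, which arrays do not measure.

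Across the 18 arrays, the levels of Cish and Pim3 had a Pearson r of 0.77, Cish and Pim1 0.74, Cish and Pim2 0.68, Pim2 and Pim3 0.65, Pim1 and Pim3 0.31 and Pim1 and Pim2 0.25. Among the 8949 genes whose mean was above background, those most like Cish were Pgrmc2 (r = 0.95), Fads1 (r = 0.94) and Cdk6 (r = 0.94), and those most like Pim1 were Ppil1 (r = 0.96), Rrp1b (r = 0.96) and Mapk6 (r = 0.95). Bcl2 (r = 0.90), D630039A03Rik (r = 0.86) and Ireb2 (r = 0.85) were most like Pim2, and Mettl22, Tent4b and Larp1b (r = 0.94, 0.93 and 0.92) were most like Pim3. These values are descriptions over arrays that deviate together by replicate number and by extraction kit.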

How the data were processed

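RNA from 18 cultures (6 groups of 3) was labelled with the Ambion MessageAmp Premier method and hybridised to Affymetrix mouse arrays. The deposited values are log2 levels per probe set that the authors made by RMA in Affymetrix Expression Console, per the labels; a genome build is not given in the sources used here. No array file from before RMA was used. The 18 columns were quantile normalized again. Of 45101 probe sets, 34958 had 1 gene symbol, 932 had several and 9211 were not listed in the annotation, and only the first kind was used. For each of 18194 genes the probe set with the highest mean was taken.

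Group means were fitted to all 18 arrays with limma 3.58.1 in R 4.3.3 (lmFit, then eBayes, 12 residual degrees of freedom, two-sided, no covariate), with Benjamini-Hochberg adjusted p-values within each comparison across all genes and a threshold of 0.05. A difference is the first group minus the second, and a fold change is its antilog. As a limit for background, for want of detection calls, 32 tissue genes not expected in T cells were averaged over the arrays and their 95th percentile was used. Samples were grouped by their labels. After removal of gene and group means, arrays of the same replicate number correlated (45 pairs, lowest 0.442, median 0.598), while the highest of 90 pairs with different numbers was 0.383, so the numbers were taken to pair the samples, and the number was added as a block in another fit. Other alternatives were the deposited values, medians moved to 1 value, extraction kit as a term, the 15 arrays, only the groups compared, all probe sets, their mean per gene, genes above background, and leaving out arrays. Counts of the lists under these alternatives, and list genes with the block, were added after seeing the data. The fit was tested on simulated data with noise drawn independently for each array. Such data lack the correlation by replicate number, so the test cannot show how the fit without the block performs on these arrays. Plots used matplotlib 3.10.9 and pandas 2.3.3 under Python 3.11.15.

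The 4 genes and the lists were chosen with earlier results of these data known. In each list, up to 4 genes per cytokine with the largest change past the threshold are named, and for each of the 4 genes the 3 with the highest r. Promoter sequences are from RefSeq (GRCm38.p6), where all 4 genes matched by symbol. A comparison of the proteins was not run. Precision is limited by 3 arrays per group.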

Additional observations from a re-analysis of the deposited data

How the results depend on the processing

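The differences of the 4 genes from media control were recomputed under each alternative (400 values). Of these, 347 kept their direction and side of the threshold, 33 lost and 13 gained significance, and 7 changed sign, none past the threshold. Between cytokines, the numbers were 688, 58, 31 and 23 of 800. The deposited values, with 3 arrays on a lower scale, kept 2 of the 10 calls against media control, Cish and Pim3 with IL-4, while with the replicate block they kept all 10. They gave 3.33 for Cish under IL-2, 3.39 under IL-7 and 2.32 under IL-21, 1.98 for Pim1 under IL-2 and 2.66 under IL-21, 1.65 for Pim2 under IL-4 and 1.51 under IL-7, and 1.48 for Pim3 under IL-2, none past the threshold without the block. A fit of only the 2 groups compared, with fewer arrays, lost Pim1 with IL-2 (1.90) and IL-21 (2.16) and Pim2 with IL-7 (1.04). Pim1 with IL-4 passed with the extraction kit as a term (1.67), with genes above background only (1.67), with the mean of its probe sets (1.68), and with the replicate block on the normalized (1.67) or deposited values (2.17). Pim1 with IL-7 passed with the kit (1.52), the block (1.52) and the block on deposited values (2.02), and Pim2 with IL-2 with the block (0.53). The block added these 3 calls against media control and lost none.

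On the deposited values, with or without the block, the sign turned for Pim2 with IL-21 against media control (0.41), Cish between IL-2 and IL-7 (-0.059), Pim1 between IL-2 and IL-4 (-0.18) and between IL-2 and IL-7 (-0.035), and Pim2 between IL-15 and IL-21 (-0.029). The 15 arrays turned Pim3 with IL-15 against media control (-0.0066), Cish between IL-2 and IL-4 (0.020) and Pim1 between IL-2 and IL-21 (0.060), and the mean of probe sets turned Pim3 between IL-15 and IL-21 (0.0023). The cause was not tested.

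Leaving out 1 array of a compared group or 1 replicate number gave 2.93 to 3.90 for Cish under IL-2, 2.71 to 3.06 under IL-7 and 1.64 to 2.00 under IL-21. It gave 1.31 to 2.35 for Pim1 under IL-2, 1.08 to 2.12 under IL-4, 0.93 to 1.97 under IL-7 and 1.58 to 2.61 under IL-21. For Pim2 it gave 0.44 to 0.62 under IL-2, 0.98 to 1.43 under IL-4, 0.89 to 1.20 under IL-7 and -0.33 to 0.20 under IL-21, and for Pim3 -0.13 to 0.25 under IL-15. Between cytokines, signs turned for Cish under IL-2 against IL-4 (-0.96 to 0.020), Pim1 under IL-2 against IL-21 (-0.52 to 0.060), IL-2 against IL-4 (-0.18 to 0.56) and IL-4 against IL-7 (-0.18 to 0.56), Pim2 under IL-4 against IL-7 (-0.028 to 0.31) and Pim3 under IL-15 against IL-21 (-0.30 to 0.084).

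Counts over all genes also moved with the settings. Leaving out 1 array or replicate number gave 476 to 2154 higher and 486 to 2149 lower genes under IL-2, 170 to 990 and 198 to 1333 under IL-4, 0 to 335 and 0 to 307 under IL-7, and 133 to 875 and 112 to 810 under IL-21. With IL-2, 1425 genes were called higher, against 39 on the deposited values, 2815 with the block and 736 with only 2 groups. The numbers were 724, 55, 2338 and 355 under IL-4, 170, 8, 1517 and 31 under IL-7, and 616, 85, 1929 and 271 under IL-21. Of lower genes, 1455, 35, 2745 and 808 were called under IL-2, 927, 12, 2348 and 527 under IL-4, 136, 0, 1457 and 19 under IL-7, and 598, 5, 1908 and 253 under IL-21. With the extraction kit as a term, 2459, 1750, 879 and 1395 genes were higher and 2394, 1874, 826 and 1412 lower with these cytokines in that order. The deposited values with the block gave 394 higher and 360 lower genes with IL-2 and 97, 2 and 50 lower genes with IL-4, IL-7 and IL-21, all probe sets gave 2375 higher and 2238 lower with IL-2, and with IL-7 genes above background gave 281 higher and 252 lower, equal medians 52 lower and the mean of probe sets 89 lower.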

Other observations

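The receptor chains and signaling molecules upstream of the 4 genes were counted in the same way. Of 7 measured receptor chains of γc cytokines, 1 rose under IL-2, 3 under IL-4, 1 under IL-7, 0 under IL-15 and 2 under IL-21, and 1 fell under IL-4. Of all genes, 7.83% were called higher under IL-2, 3.98% under IL-4, 0.934% under IL-7 and 3.39% under IL-21, and 5.10% lower under IL-4. Besides Il2ra, Il4ra, the IL-4 receptor chain, rose with IL-4 (1.98, SE 0.42, adjusted p = 0.00737) and Il21r, the IL-21 receptor chain, rose with IL-21 (1.33, SE 0.18, adjusted p = 2.6e-04) and IL-4 (0.97, adjusted p = 0.00297). Il7r, the IL-7 receptor chain, fell with IL-4 (-1.67, SE 0.34, adjusted p = 0.00515). Its differences were -0.84 with IL-7 (adjusted p = 0.253), -0.61 with IL-2 (adjusted p = 0.307) and -0.77 with IL-21 (adjusted p = 0.241), and with the replicate block all 3 passed (adjusted p = 0.0102, 0.0265 and 0.0117).

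Of 10 measured JAK kinases and STAT factors, 3 fell under IL-2, 1 under IL-4, 1 under IL-7, 0 under IL-15 and 2 under IL-21, and 1 rose under IL-21. Of all genes, 8.0% fell under IL-2, 5.10% under IL-4, 0.747% under IL-7, 0% under IL-15 and 3.29% under IL-21, and 3.39% rose under IL-21. Jak2 fell by 1.51 under IL-2, 0.55 under IL-4, 0.81 under IL-7 and 0.61 under IL-21, Jak1 by 1.32 under IL-2, and Stat4 by 0.81 under IL-2 and 0.63 under IL-21. Stat3, the main STAT of IL-21, rose by 0.51 with IL-21. The genes of STAT5 itself did not pass with any cytokine, with differences between -0.10 and 0.88 for Stat5a (SE 0.74) and between -0.56 and 0.08 for Stat5b (SE 0.31). With the replicate block, 7 JAK and STAT genes fell with IL-2, 3 fell and 2 rose with IL-4, 2 fell with IL-7, and 4 fell and 3 rose with IL-21. In that fit, 15.1%, 12.9%, 8.01% and 10.5% of all genes fell with IL-2, IL-4, IL-7 and IL-21. The shares that rose were 12.9% with IL-4 and 10.6% with IL-21.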
